A study of Mus musculus with 8 samples.

Results

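The cytosolic ribosomal protein (RP) genes encode the proteins of the 40S and 60S subunits of the ribosome, and their expression was followed here in bone marrow-derived macrophages (BMDMs) of mice with and without the transcription coactivator MKL1. Members were the rows of the count tables whose symbol follows the naming of RP genes of the small (Rps, Rpsa) or large (Rpl, Rplp) subunit, without pseudogene names and without Rpl3, and with at least 800 counts summed over the 8 libraries. Of the 53735 genes in the tables, 82 matched the names and 77 were kept, 45 of the large and 32 of the small subunit, and all 77 were among the 14418 genes tested. The count limit left out Rpl24 with 184 counts, Rpl39l with 165, Rpl3l with 29 and Rpl10l with 0, while the members nearest to it were Rps4l with 1074 counts and Rpl36al with 1413. Several RP genes with other kinds of names, such as Fau and Rps3a1, were outside the members by their symbols.

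All mice were 6-month-old males that lacked Apoe (Apoe-/-) and received angiotensin II (Ang II) for 7 days from an osmotic minipump. WT animals were Mkl1+/+, Apoe-/- and KO animals were Mkl1-/-, Apoe-/-, with Mkl1 deleted in every tissue rather than in macrophages alone, and every group compared here shared the lack of Apoe and the Ang II infusion. Bone marrow cells were cultured for 7 days to give BMDMs, and polyadenylated RNA was sequenced from 2 WT and 2 KO libraries in each of 2 experiments. The libraries were WT1, WT2, KO5 and KO6 in experiment 1 and WT3, WT4, KO7 and KO8 in experiment 2. The experiments address whether the loss of Mkl1 changes the transcriptome of macrophages from Ang II-infused mice, and the KO/WT comparison was made within each of them. The labels do not say whether the libraries of a group came from separate animals or cultures, so the p-values measure the spread between these libraries, which may be technical.

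The targeted gene, Mkl1 (chr15:81012281-81190757, GRCm38), was at 25.6 and 27.1 CPM in WT and 19.5 and 20.9 CPM in KO of experiment 1. Mkl1 in experiment 2 was at 26.8 and 29.5 CPM in WT and 14.6 and 10.4 CPM in KO. The KO libraries were below the WT libraries in both experiments, but Mkl1 reads were present in all of them. Library totals ran from 33977799 to 41584540 counts. The macrophage markers Adgre1, Csf1r, Cd68 and Lyz2 were abundant in every library, at 751 CPM, counts scaled to library size, or more. The 9 fibroblast markers summed to 178 CPM in KO5 and 234 in KO6 and to between 2.18 and 12.1 in the other 6 libraries, and all 7 of them that could be tested were higher in KO of experiment 1. Itgax, which is expressed by dendritic cells and by some macrophages, was at 3.24 and 2.29 CPM in WT and 19.2 and 29.3 in KO of experiment 1, and 30.9 and 46.7 in WT and 1.58 and 0.935 in KO of experiment 2, whereas the dendritic cell genes Flt3, Zbtb46, Cd209a, Ccr7 and Xcr1 stayed below 1 CPM in every library. The 8 neutrophil markers summed to between 0.324 and 1.52 CPM and the 6 B and T cell markers to between 1.03 and 5.63, with Cd3e at 0. Of the 6 erythroid markers 5 were at 0 in every library. Mitochondrially encoded genes took 2.8% and 2.5% of the counts in KO5 and KO6 and between 2.17% and 2.41% elsewhere.

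As background, RP genes are transcribed at high rates in growing cells, and their products are needed in equal numbers because each ribosome carries a single copy of nearly every RP. Their mRNAs usually begin with a cytosine followed by a run of pyrimidines, the 5′ terminal oligopyrimidine (TOP) motif, through which mTORC1 and the RNA-binding protein LARP1 control how they are translated and how stable they are. Transcription of RP genes and of the factors that assemble ribosomes is also raised by MYC. In macrophages, ribosome production accompanies proliferation in response to colony-stimulating factor 1.

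RP mRNAs were less abundant in KO than in WT in experiment 1 and more abundant in KO than in WT in experiment 2. The 77 genes together took 2.5% of the counts in WT1 and 2.46% in WT2 but 1.91% in KO5 and 1.92% in KO6. In experiment 2 they took 1.74% in WT3 and 1.8% in WT4 but 2.34% in KO7 and 2.62% in KO8. The groups did not overlap in either experiment, and the WT and KO shares of the 2 experiments were close to exchanged, with a mean of 2.48% in WT of experiment 1 and in KO of experiment 2 against 1.92% in KO of experiment 1 and 1.77% in WT of experiment 2. Shares are relative to the other RNA of a library, and in bulk RNA less RP mRNA in each cell cannot be told apart from fewer cells with much of it.

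**Figure D1:**
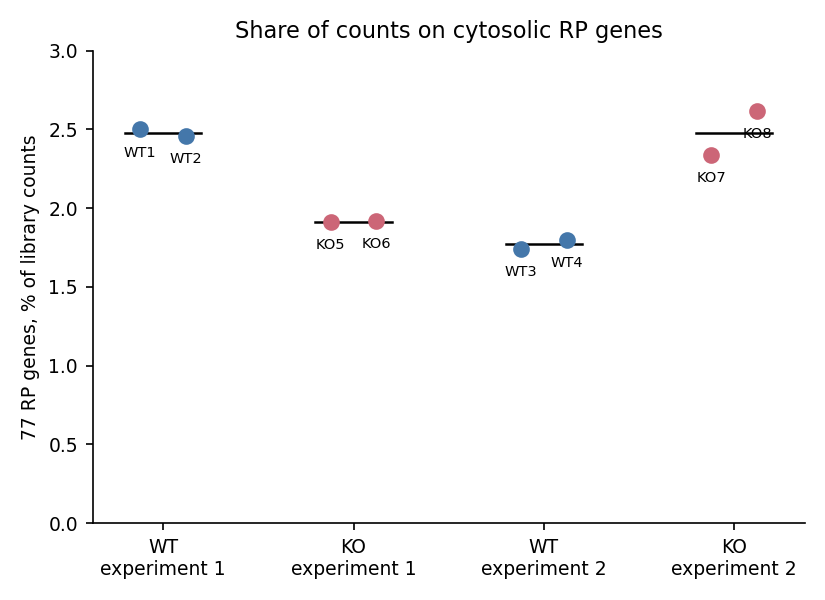
Summed counts of the 77 RP genes as percent of all counts of each library (y axis), by genotype and experiment (x axis); points are libraries and lines are the means of 2 libraries. WT of experiment 1 and KO of experiment 2 sit between 2.34% and 2.62%, above KO of experiment 1 and WT of experiment 2, which sit between 1.74% and 1.92%.

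Gene by gene, 66 of the 77 members were lower in KO in experiment 1, 1 was higher and 10 did not pass the threshold, an adjusted p under 0.05 by the quasi-likelihood test of edgeR after Benjamini-Hochberg adjustment over all 14418 genes. Experiment 1 changed many genes, with 28.1% of all genes tested called lower and 27.0% called higher, so the count of members called lower is to be read against 28.1%. With upper-quartile scaling these shares were 22.2% and 33.1% and the members called were 60 lower and 1 higher. The median log2 fold change of the members was -0.42, with quartiles of -0.59 and -0.29, against a median of 0.01 and quartiles of -0.35 and 0.45 over all genes. On the linear scale the median member in KO was at 0.746 of its WT level. Both subunits contributed, with 38 of 45 large and 28 of 32 small subunit genes called lower at medians of -0.46 and -0.42.

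In experiment 2, 19 of the 77 members were higher in KO, 0 were lower and 58 did not pass the threshold, although 53 had an unadjusted p under 0.05. Among all genes tested, 7.52% were called higher and 8.29% lower in that experiment. The members' median log2 fold change was 0.42, with quartiles of 0.26 and 0.54, again against 0.01 over all genes, which is 1.34-fold on the linear scale. Large subunit genes gave 12 calls with a median of 0.39 and small subunit genes 7 calls with a median of 0.44. Among the 19 called genes were Rpl5, Rpl12, Rpl17, Rpl23, Rpl26, Rpl27a, Rpl28, Rpl30, Rpl36, Rpl37, Rpl39, Rplp0, Rps15a, Rps20, Rps23, Rps26, Rps28 and Rps29, and each of the 19 was also among the 66 called lower in experiment 1. A lower call in experiment 1 together with a higher call in experiment 2 was made for 3.11% of all genes tested. The count in experiment 2 was the less firm of the pair, because it was 0 when any 1 of WT3, WT4, KO7 or KO8 was left out and again 0 at an adjusted p under 0.01, while other scalings, filters, tools and a fit of all 4 groups gave between 18 and 56. All genes called higher made up between 6.02% and 17.2% in these fits, the highest share and the 56 members both coming from the fit of all 4 groups. That fit shares 1 spread estimate between the experiments.

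The difference between the experiments was tested directly by the interaction of genotype and experiment. This fit uses 1 spread estimate for each gene over all 8 libraries. By a chi-square per gene between the 2 libraries of a group, replicates differed more in experiment 2, at 80.1 in KO and 66.0 in WT. The values in experiment 1 were 12.3 in KO and 15.6 in WT. The SEs and p-values of the interaction may therefore be too small. Of the 77 members, 66 had a higher KO/WT ratio in experiment 2 than in experiment 1, 0 had a lower one and 11 did not pass the threshold, against 21.0% of all genes called higher and 20.6% called lower. The members' median difference between the log2 fold changes, experiment 2 minus experiment 1, was 0.85 with quartiles of 0.56 and 1.1. Averaged over both experiments in the fit of all 8 libraries, 0 of 77 members passed the edgeR threshold in either direction and 1 had an unadjusted p under 0.05. The alternative tools and settings gave 0 as well, the members' median was -0.01, and 3.41% of all genes were called lower and 3.72% higher. The pooled value is the mean of effects of opposite sign and does not describe either experiment.

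**Figure D2:**
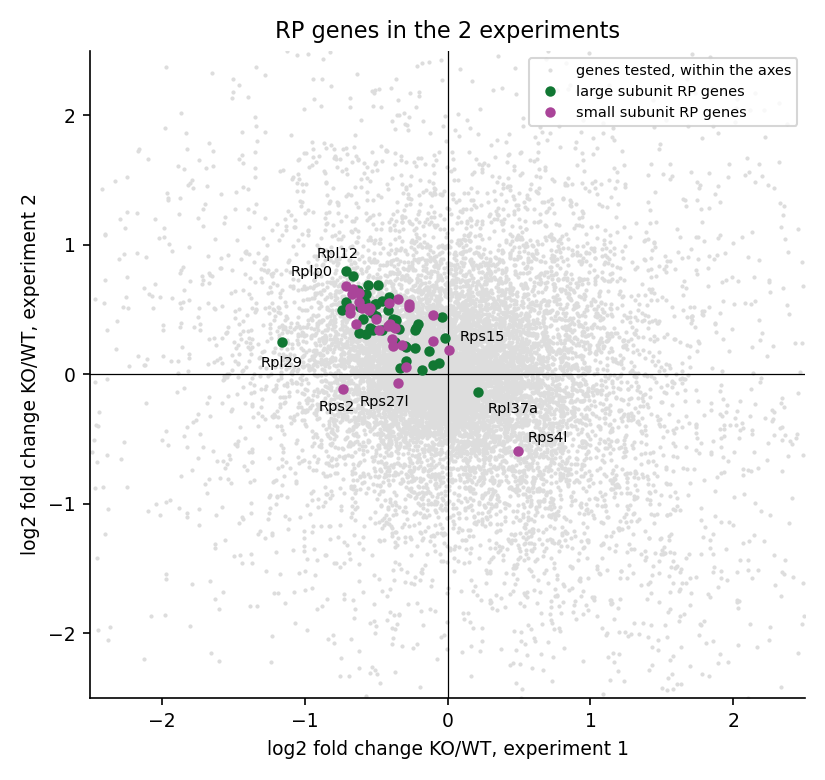
Log2 fold change of KO over WT in experiment 1 (x axis) and experiment 2 (y axis) for the RP genes of the large and small subunit and, in grey, for all genes tested that lie within the axes. Most RP genes, 72 of 77, lie left of 0 and above 0, while Rps2, Rps27l, Rps15, Rpl37a and Rps4l lie outside it.

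Of the members, 72 of 77 (93.5%) had a log2 fold change below 0 in experiment 1 and above 0 in experiment 2, as did 27.1% of all genes tested. Levels in single libraries showed the same arrangement. In experiment 1 both KO libraries were below both WT libraries for 71 members (38.7% of all genes tested), and in experiment 2 both KO libraries were above both WT libraries for 67 members (32.9%). For 63 members all 4 of WT1, WT2, KO7 and KO8 were above all 4 of WT3, WT4, KO5 and KO6, an arrangement seen in 12.5% of all genes tested. Across the 77 members the log2 fold changes of the experiments, which share no library, were related with Pearson's r of -0.62 and Spearman's rho of -0.59, so that genes with the larger fall in experiment 1 tended to have the larger rise in experiment 2. Genes are not independent replicates, and these coefficients are a description only.

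By the median over the members, replicate libraries differed least in KO of experiment 1, where the median absolute log2 ratio of KO6 to KO5 was 0.03, and most in KO of experiment 2, where that of KO8 to KO7 was 0.12. KO8 exceeded KO7 for 58 of the 77 genes. The WT pairs lay between these, at 0.08 in experiment 1 and 0.07 in experiment 2. The highest absolute log2 ratios of a single member were 1.08 between KO5 and KO6 and 1.04 between KO7 and KO8, both for Rps4l, the member nearest to the count limit.

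**Figure D3:**
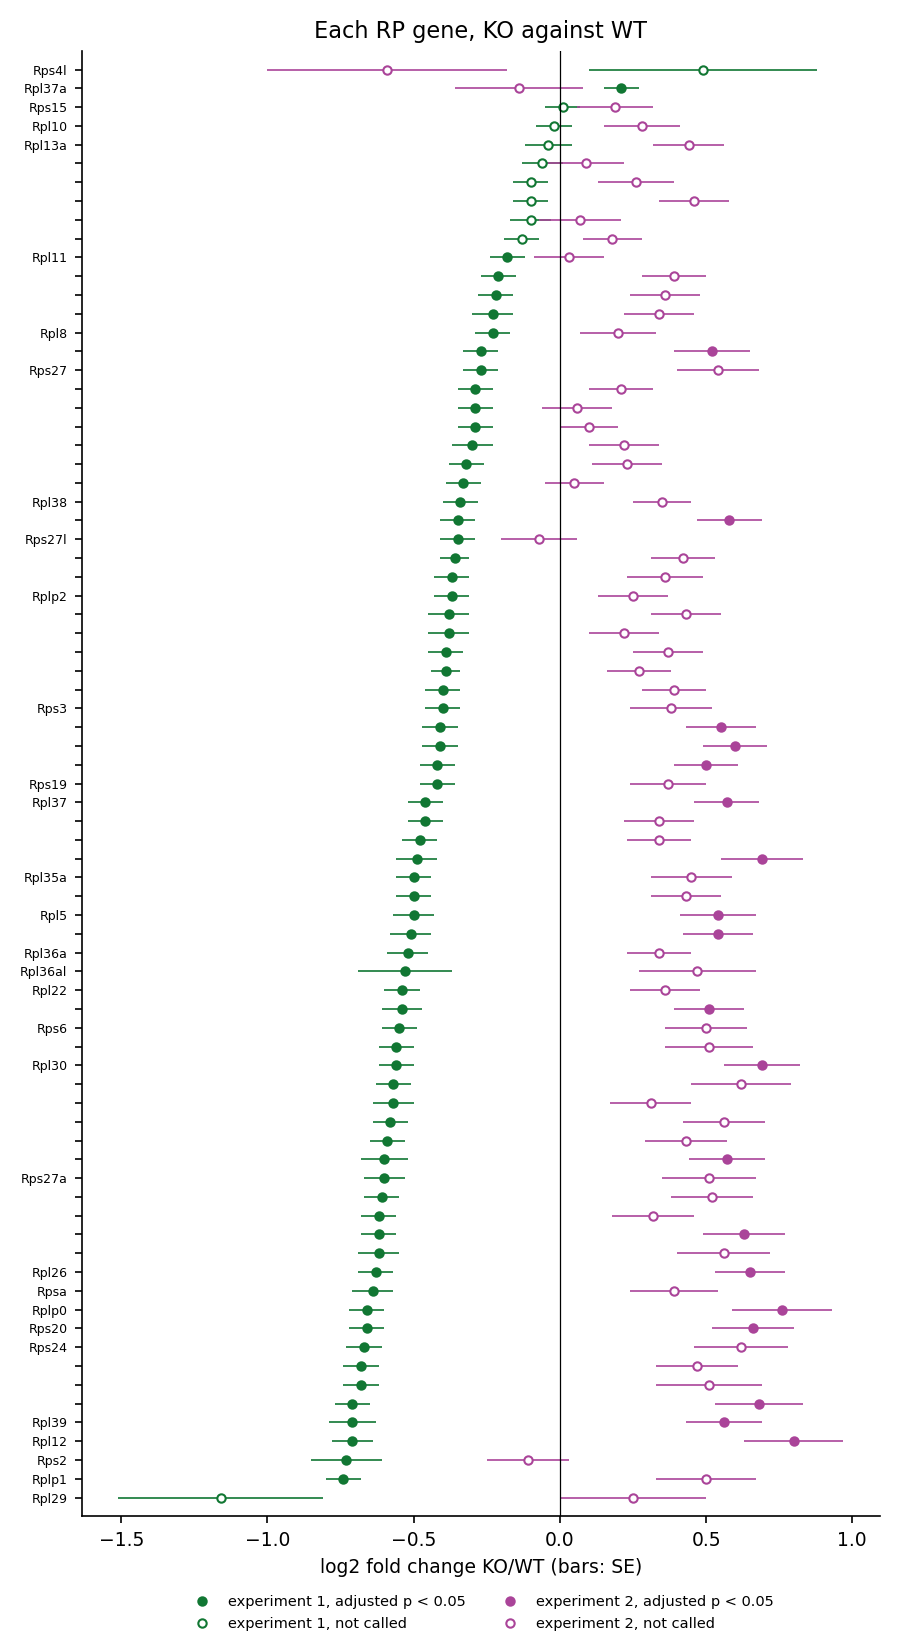
Log2 fold change of KO over WT (x axis) for each of the 77 RP genes (rows, ordered by experiment 1, with names for the genes described one by one) in both experiments, with bars of 1 SE; filled points passed an adjusted p under 0.05 in edgeR's test and open points did not. The points of experiment 1 run from -1.16 (Rpl29) to 0.49 (Rps4l) and those of experiment 2 from -0.59 (Rps4l) to 0.80 (Rpl12).

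The ribosomal stalk, a flexible arm of the large subunit that recruits translation factors, gave calls in both experiments for Rplp0 and Rpl12 and in experiment 1 alone for Rplp1 and Rplp2. Rplp0, which anchors the stalk, was at 1110 and 1090 CPM in WT and 694 and 715 CPM in KO of experiment 1. Rplp0 in experiment 2 was at 674 and 649 CPM in WT and 982 and 1260 CPM in KO. Levels of 982 CPM or more in WT of experiment 1 and KO of experiment 2 contrasted with levels of 715 or less in KO of experiment 1 and WT of experiment 2. Rplp0 fell in experiment 1 (log2 fold change -0.66, SE 0.06, adjusted p = 8.23e-05) and rose in experiment 2 (0.76, SE 0.17, adjusted p = 0.0444). Rplp1, an acidic protein bound to Rplp0, was at 763 and 798 CPM in WT and 472 and 468 CPM in KO of experiment 1. Rplp1 in experiment 2 was at 515 and 565 CPM in WT and 672 and 860 CPM in KO. Rplp1 had a lower fold change than any other member but Rpl29 in experiment 1 (-0.74, SE 0.06, adjusted p = 3.86e-05), and its value of 0.50 in experiment 2 (SE 0.17, adjusted p = 0.111) did not pass. Rplp2, the partner of Rplp1 on the stalk, fell less in experiment 1 (-0.37, SE 0.06, adjusted p = 0.000861) and did not pass in experiment 2 (0.25, SE 0.12, adjusted p = 0.212). At the base of the stalk sits Rpl12, which had the highest fold change of the members in experiment 2. Its levels were 690 and 642 CPM in WT and 411 and 411 CPM in KO of experiment 1. Rpl12 in experiment 2 was at 400 and 393 CPM in WT and 607 and 774 CPM in KO. Rpl12 fell in experiment 1 (-0.71, SE 0.07, adjusted p = 6.08e-05) and rose in experiment 2 (0.80, SE 0.17, adjusted p = 0.0356), with no overlap of the groups in either.

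The members with the smallest p for the interaction were Rpl26, Rpl37 and Rps20. Rpl26, a protein of the large subunit, was at 284 and 264 CPM in WT and 181 and 176 in KO of experiment 1, and 170 and 163 in WT and 246 and 275 in KO of experiment 2. Rpl37 was at 264 and 265 CPM in WT and 192 and 194 in KO of experiment 1, and 180 and 174 in WT and 260 and 266 in KO of experiment 2. Rps20, a protein of the small subunit head, was at 336 and 344 CPM in WT and 215 and 220 in KO of experiment 1, and 222 and 215 in WT and 315 and 377 in KO of experiment 2. In each of these genes every WT library of experiment 1 and every KO library of experiment 2 was above the other 4 libraries. The difference between the log2 fold changes of the experiments was 1.26 for Rpl26 (SE 0.12, adjusted p = 0.000514), 1.02 for Rpl37 (SE 0.10, adjusted p = 0.000546) and 1.31 for Rps20 (SE 0.14, adjusted p = 0.000709). For Rpl37 this SE was below its SE of 0.11 in experiment 2 alone, in a fit that shares 1 spread estimate between the experiments.

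Rpl5 and Rpl11 travel together with the 5S rRNA into the large subunit and, when ribosome assembly is disturbed, bind and inhibit the p53 ubiquitin ligase Mdm2. Rpl5 was at 347 and 317 CPM in WT and 238 and 235 CPM in KO of experiment 1. Rpl5 in experiment 2 was at 231 and 213 CPM in WT and 307 and 339 CPM in KO. The groups of Rpl5 did not overlap in either experiment, and the gene fell in experiment 1 (log2 fold change -0.50, SE 0.07, adjusted p = 0.000349) and rose in experiment 2 (0.54, SE 0.13, adjusted p = 0.0479). Rpl11 was at 295 and 279 CPM in WT and 255 and 258 in KO of experiment 1, and 273 and 270 in WT and 285 and 268 in KO of experiment 2. Rpl11 fell in experiment 1 (-0.18, SE 0.06, adjusted p = 0.0354), and in experiment 2 its value was 0.03 (SE 0.12, adjusted p = 0.9) with overlapping groups. The interaction passed for Rpl5 (1.03, SE 0.13, adjusted p = 0.00127) and not for Rpl11 (0.19, SE 0.11, adjusted p = 0.209), and whether these genes differ from each other was not tested.

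Some members are mutated in Diamond-Blackfan anaemia, a failure of red cell production caused by loss of one copy of an RP gene, among them Rpl5, Rpl11 and Rpl26 above and Rps19, Rps24 and Rpl35a. Rps19, the gene most often mutated in that disease, was at 229 and 249 CPM in WT and 179 and 181 in KO of experiment 1, and 186 and 199 in WT and 231 and 268 in KO of experiment 2. Rps24 was higher throughout, at 777 and 731 CPM in WT and 482 and 474 in KO of experiment 1, and 490 and 458 in WT and 653 and 802 in KO of experiment 2. Rpl35a was at 184 and 168 CPM in WT and 127 and 124 in KO of experiment 1, and 134 and 119 in WT and 158 and 187 in KO of experiment 2. Each of these genes was lower in KO of experiment 1, with log2 fold changes of -0.42 for Rps19 (adjusted p = 0.000712), -0.67 for Rps24 (adjusted p = 7.72e-05) and -0.50 for Rpl35a (adjusted p = 0.000328). In experiment 2 both KO libraries of all of them were above both WT libraries, as for 67 of the 77 members and 32.9% of all genes tested. Their log2 fold changes of 0.37, 0.62 and 0.45 did not pass (adjusted p = 0.119, 0.0585 and 0.0904).

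Members with functions described outside the ribosome were examined as a further group. Rps6, the substrate of the S6 kinases downstream of mTORC1, was at 324 and 304 CPM in WT and 216 and 215 in KO of experiment 1, and 240 and 204 in WT and 314 and 313 in KO of experiment 2. Rpsa, which is also known as the laminin receptor, was at 549 and 496 CPM in WT and 334 and 344 in KO of experiment 1, and 409 and 383 in WT and 477 and 559 in KO of experiment 2. Rps3, which has been described as a DNA repair enzyme and a cofactor of NF-κB, was at 748 and 708 CPM in WT and 557 and 553 in KO of experiment 1, and 557 and 548 in WT and 677 and 759 in KO of experiment 2. These genes fell in experiment 1, by a log2 fold change of -0.55 for Rps6, -0.64 for Rpsa and -0.40 for Rps3, and their values of 0.50, 0.39 and 0.38 in experiment 2 missed the threshold. Rps27a, which is made as a fusion with ubiquitin, was at 356 and 313 CPM in WT and 222 and 222 in KO of experiment 1, and 253 and 233 in WT and 306 and 385 in KO of experiment 2. Rpl22, an RNA-binding protein needed for αβ T cell development, was at 235 and 222 CPM in WT and 161 and 155 in KO of experiment 1, and 165 and 169 in WT and 206 and 222 in KO of experiment 2. Rpl38, which in mouse embryos affects the translation of Hox mRNAs, was at 105 and 99.6 CPM in WT and 80.4 and 82.8 in KO of experiment 1, and 80.4 and 78.1 in WT and 102 and 100 in KO of experiment 2. These genes again fell in experiment 1 (-0.60, -0.54 and -0.34 for Rps27a, Rpl22 and Rpl38) and had log2 fold changes of 0.51, 0.36 and 0.35 in experiment 2 that did not pass. Rpl13a, part of a complex that silences inflammatory mRNAs in interferon-γ-treated myeloid cells, was at 42.2 and 43.1 CPM in WT and 45 and 38.8 CPM in KO of experiment 1. Rpl13a in experiment 2 was at 32.2 and 27.7 CPM in WT and 39.6 and 41.7 CPM in KO. For Rpl13a the WT and KO libraries of experiment 1 overlapped (-0.04, SE 0.08, adjusted p = 0.718), whereas both KO libraries of experiment 2 were above both WT libraries without passing (0.44, SE 0.12, adjusted p = 0.0702). The interaction passed for every gene of this group, with differences of log2 fold change between 0.47 (Rpl13a) and 1.10 (Rps27a). It passed in the same direction for 66 of all 77 members and for 21.0% of all genes tested.

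**Figure D4:**
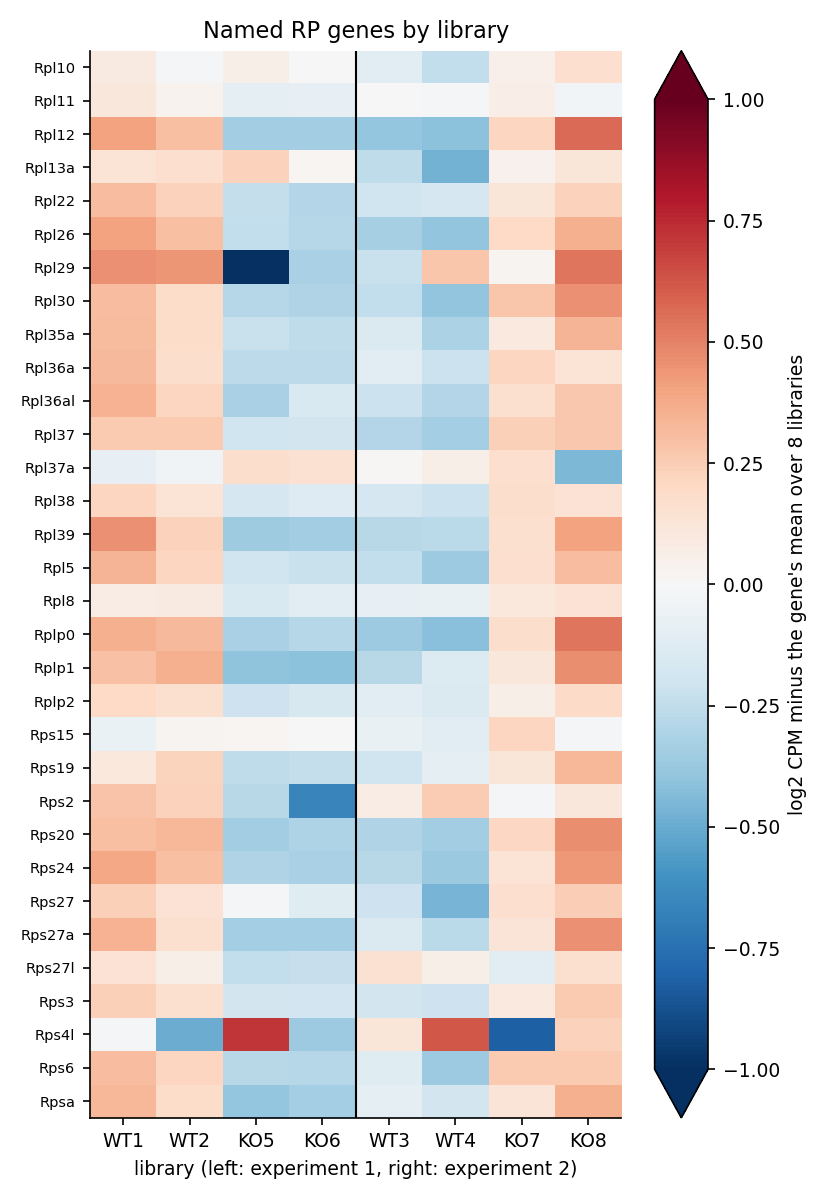
Log2 CPM minus the gene's mean over 8 libraries (colour, red above and blue below the mean, capped at 1) for the 32 RP genes described one by one in the text (rows) in each library (columns, experiment 1 left and experiment 2 right of the line). Most rows are red in WT1, WT2, KO7 and KO8 and blue in KO5, KO6, WT3 and WT4; Rpl37a, Rps15, Rps4l, Rps2, Rpl11 and Rpl10 are among those that are not.

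A few members departed from the pattern. Rpl37a, a zinc finger protein of the large subunit, was the single member called higher in experiment 1. It was at 117 and 121 CPM in WT and 140 and 138 CPM in KO of experiment 1. Rpl37a in experiment 2 was at 125 and 129 CPM in WT and 139 and 90.6 CPM in KO. Rpl37a was raised in both KO libraries of experiment 1 (log2 fold change 0.21, SE 0.06, adjusted p = 0.0126), and in experiment 2 KO7 was above and KO8 below the WT libraries (-0.14, SE 0.22, adjusted p = 0.679). The call in experiment 1 was lost when all 4 groups were fitted together, with offsets for gene length and GC content, and at an adjusted p under 0.01. Rps15, a small subunit protein near the decoding site, was at 272 and 291 CPM in WT and 290 and 284 in KO of experiment 1, and 271 and 266 in WT and 331 and 283 in KO of experiment 2. Rpl10, which joins the large subunit late in its assembly, was at 328 and 304 CPM in WT and 320 and 308 in KO of experiment 1, and 286 and 260 in WT and 318 and 345 in KO of experiment 2. The groups of Rps15 and Rpl10 overlapped in experiment 1, and neither gene passed in either experiment or for the interaction (adjusted p = 0.356 and 0.117). With offsets for gene length and GC content, Rps15 was called lower in experiment 1 and Rpl10 higher, so whether these 2 genes were called in that experiment depends on this choice.

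Rps2, a small subunit protein at the mRNA entry site, was at 380 and 366 CPM in WT and 257 and 198 CPM in KO of experiment 1. Rps2 in experiment 2 was at 328 and 372 CPM in WT and 309 and 338 CPM in KO. Rps2 fell in experiment 1 (-0.73, SE 0.12, adjusted p = 0.0044), with KO6 lower than KO5, and had overlapping groups in experiment 2 (-0.11, SE 0.14, adjusted p = 0.597). Rpl29, a small basic protein of the large subunit, had the lowest fold change of all members in experiment 1 but was not called. It was at 72.2 and 71.5 CPM in WT and 23 and 41.9 CPM in KO of experiment 1. Rpl29 in experiment 2 was at 45.1 and 63.9 CPM in WT and 53.5 and 76.2 CPM in KO. The pairs within KO of experiment 1 and within both groups of experiment 2 differed widely, and the SE of Rpl29 in experiment 1 (-1.16, SE 0.35, adjusted p = 0.0772) was above that of most members. Rps4l, the member nearest to the count limit, was at 3.29 and 2.37 CPM in WT and 5.49 and 2.6 CPM in KO of experiment 1. Rps4l in experiment 2 was at 3.62 and 5.14 CPM in WT and 1.9 and 3.91 CPM in KO. Its groups overlapped in both experiments and its fold changes of 0.49 and -0.59 had SEs of 0.39 and 0.41. The other members not called in experiment 1 were Rpl7, Rpl7a, Rpl10a, Rps14 and Rps16, with log2 fold changes between -0.13 and -0.06.

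Paralogs of RP genes allow a comparison of closely related proteins. Rps27 and Rps27l encode near-identical small subunit proteins, and RPS27L is a known target of p53. Rps27 was at 230 and 215 CPM in WT and 193 and 179 in KO of experiment 1, and 169 and 141 in WT and 219 and 231 in KO of experiment 2. Rps27l was at 88.1 and 83 CPM in WT and 67.2 and 67.8 in KO of experiment 1, and 88.6 and 83 in WT and 74.2 and 88.8 in KO of experiment 2. Both fell in experiment 1 (-0.27 for Rps27 and -0.35 for Rps27l), while in experiment 2 both KO libraries of Rps27 were above both WT libraries (0.54, SE 0.14, adjusted p = 0.0553) and those of Rps27l overlapped with them (-0.07, SE 0.13, adjusted p = 0.724). The interaction passed for Rps27 (adjusted p = 0.00505) and not for Rps27l (adjusted p = 0.162), and the difference between the paralogs was not tested. Rpl36a and its paralog Rpl36al had log2 fold changes of -0.52 and -0.53 in experiment 1, both called. Rpl36a was at 111 and 100 CPM in WT and 74.1 and 74.2 in KO of experiment 1, and 82.1 and 76.5 in WT and 103 and 97.5 in KO of experiment 2. Rpl36al was far lower, at 5.75 and 5.25 CPM in WT and 3.6 and 4.07 in KO of experiment 1, and 3.89 and 3.68 in WT and 5.05 and 5.44 in KO of experiment 2. Rpl39, at the mouth of the tunnel through which new proteins leave the ribosome, was at 165 and 141 CPM in WT and 94 and 94.7 in KO of experiment 1, and 99 and 99.7 in WT and 134 and 159 in KO of experiment 2. Rpl39 fell in experiment 1 (-0.71, SE 0.08, adjusted p = 0.000208) and rose in experiment 2 (0.56, SE 0.13, adjusted p = 0.0445). Its paralog Rpl39l, which is abundant in testis, stayed at or below 1.55 CPM, and those of Rpl3 and Rpl10 (Rpl3l and Rpl10l) at or below 0.15 CPM. Of the RP genes outside the members, Rpl3 was called lower in experiment 1 (-0.48, SE 0.07, adjusted p = 0.000436) and not called in experiment 2 (0.12, SE 0.14, adjusted p = 0.585). The same held for Rps3a1 (-0.43 and 0.42) and the Rpl7 relative Rpl7l1 (-0.48 and -0.11). Fau, whose protein is cleaved to give a small subunit protein, and the Rpl22 paralog Rpl22l1 were called in neither.

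RP genes have many processed pseudogenes whose sequences are nearly the same as their mRNAs. The tables hold 251 pseudogene rows named after 58 of the members, and 170 of them had a count. Together they took 5911 counts, which is 0.089% of the counts of the members, so the rows named in this way carried too few counts to move the members' sums. Copies under other kinds of names, if any, were not counted. Reads that match a gene and its copies equally well may have been dropped or given to either, since the counting of such reads is not given in the sources used here.

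Per length, the 76 members with a principal mRNA in the annotation (GENCODE M21, GRCm38) ranged from 8.73 CPM per kilobase (Rpl36al) over a median of 324 to 1430 (Rps12), averaged over the 8 libraries. Rplp1 was at 1280 CPM per kilobase. Annotated length and reads shared with copies both enter these levels.

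The members lie on 19 chromosomes. Mkl1 lies on chromosome 15, which it shares with 3 members. Rpl37 (chr15:5116645-5119140) is 75.9 Mb and Rpl30 (chr15:34440505-34443640) 46.6 Mb away, while Rpl8 (chr15:76904078-76906314) is 4.11 Mb away. Rpl30 was at 165 and 151 CPM in WT and 109 and 108 in KO of experiment 1, and 112 and 101 in WT and 161 and 183 in KO of experiment 2. Rpl30 fell in experiment 1 (-0.56, SE 0.06, adjusted p = 0.00017) and rose in experiment 2 (0.69, SE 0.13, adjusted p = 0.0272). Rpl8, the nearest, was at 581 and 587 CPM in WT and 495 and 510 CPM in KO of experiment 1. Rpl8 in experiment 2 was at 522 and 525 CPM in WT and 594 and 609 CPM in KO. Its log2 fold changes had the signs of most other members, at sizes below the members' medians (-0.23 in experiment 1, adjusted p = 0.0132, and 0.20 in experiment 2, adjusted p = 0.325).

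The sequence at the start of transcription was read from RefSeq (GRCm38.p6), where 57 of the 77 members had an annotated start. A C at the annotated start followed by at least 4 bases that are each C or T, on the transcribed strand, was found in 13 of the 57 members (22.8%) and in 3.01% of all 27025 genes with a start in the same set. Between 10 bases before and 15 bases after the start, a run of this kind was found in 35 of the 57 members (61.4%) and in 34.4% of all genes. Of the genes shown here, Rpl35a has 3 annotated starts, of which 1 has the run and is shown, and a gene with several starts was counted where any of them had it. Annotated starts can be off by some bases, so a missing match says only that these letters are not in this window. The windows below run from 15 bases before the start to 15 bases from it on, 5′ to 3′ on the strand of the gene (GRCm38), and the run of pyrimidines is in capitals. The first 5 are members with the run at the start itself, chosen among the genes described above, and the last 4 are genes that departed from the pattern in at least 1 experiment.
Rps6, chr4:86857353-86857382, minus strand: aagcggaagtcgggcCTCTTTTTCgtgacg
Rplp2, chr7:141447636-141447665, plus strand: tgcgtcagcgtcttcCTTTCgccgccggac
Rpl38, chr11:114668565-114668594, plus strand: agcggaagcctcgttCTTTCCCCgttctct
Rps27, chr3:90213634-90213663, minus strand: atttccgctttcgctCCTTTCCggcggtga
Rpl35a, chr16:33056467-33056496, plus strand: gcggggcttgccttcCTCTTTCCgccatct
Rpl37a, chr1:72711245-72711274, plus strand: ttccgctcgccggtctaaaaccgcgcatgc
Rps15, chr10:80292416-80292445, plus strand: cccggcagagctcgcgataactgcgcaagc
Rpl10, chrX:74270801-74270830, plus strand: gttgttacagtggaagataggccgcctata
Rps2, chr17:24720048-24720077, plus strand: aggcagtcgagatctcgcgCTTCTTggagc

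In experiment 1, where 28.1% of all genes were called lower, the lower calls were 13 of 13 among members with the run at the start, 19 of 22 with a run nearby and 18 of 22 with neither. In experiment 2, where 7.52% of all genes were called higher, the higher calls were 2 of 13, 5 of 22 and 6 of 22. For the interaction, with 21.0% of all genes called higher, they were 13 of 13, 19 of 22 and 17 of 22, and differences between these groups of members were not tested. The median log2 fold changes in experiments 1 and 2 were -0.40 and 0.39 with the run at the start, -0.53 and 0.43 with a run nearby and -0.37 and 0.38 with neither. Of the 4 genes shown last, Rpl37a, Rps15 and Rpl10 had no such run in the window, and Rps2 had one downstream of the start. Rplp0, Rpl5, Rpl26 and Rpl37, which changed in both experiments, had none either.

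Genes that act with the ribosome were described from lists of translation and ribosome assembly factors. Their counts are to be read against 28.1% of all genes called lower and 27.0% called higher in experiment 1, and 8.29% lower and 7.52% higher in experiment 2. The translation initiation and elongation factors (eIF and eEF genes) gave mostly lower calls in experiment 1, where 25 of 31 were lower and 2 higher at a median of -0.48. In experiment 2, 1 was higher and 1 lower at a median of 0.11. Eef1b2, an elongation factor with a TOP mRNA, was the factor called higher there (0.67, SE 0.12, adjusted p = 0.0256). Eif6, which keeps the subunits apart, was lower in both experiments (-0.73, adjusted p = 4.06e-05, and -0.64, adjusted p = 0.0464). The RNA helicase Eif4a1 was called lower over both experiments together (-0.42, SE 0.09, adjusted p = 0.0391). Of 18 other genes with TOP mRNAs, 13 of which stand on other lists as well, 9 were lower and 2 higher in experiment 1 (median -0.25) and 0 lower and 1 higher in experiment 2 (median 0.33). Hnrnpa1, an RNA-binding protein of this list, was instead lower over both experiments together (-0.42, SE 0.08, adjusted p = 0.0259).

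The host genes of small nucleolar RNAs (snoRNAs), whose introns carry the guides of rRNA modification and many of which have TOP starts, gave lower calls in experiment 1 and higher calls in experiment 2, although not for every gene. Of the 12 tested, 9 were lower and 0 higher in experiment 1 (median -0.82), and 0 were lower and 6 higher in experiment 2 (median 0.58), against 28.1% of all genes lower in the first and 7.52% higher in the second. Snhg20 (0.13) and Zfas1 (0.07) had log2 fold changes above 0 in experiment 1, and whether the list differed from the RP genes was not tested. Gas5, named here after its values were seen as the host gene with the largest interaction, was at 200 and 181 CPM in WT and 73.6 and 77.8 CPM in KO of experiment 1. Gas5 in experiment 2 was at 73.1 and 77.8 CPM in WT and 185 and 270 CPM in KO. It fell in experiment 1 (-1.35, SE 0.07, adjusted p = 3.87e-06) and rose in experiment 2 (1.59, SE 0.21, adjusted p = 0.0146). Snhg17 and Snhg20, chosen by their p over both experiments, were not called in experiment 2 (-0.17 and 0.36).

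Ribosome assembly factors were called lower throughout in experiment 1 and not called in experiment 2. All 41 genes of the list, among them the nucleolar proteins Ncl, Npm1 and Fbl, were lower in KO of experiment 1, at a median of -0.84 on the log2 scale, against 28.1% of all genes. In experiment 2, 0 of 41 were called by edgeR in either direction, 7 had an unadjusted p under 0.05, and the median was -0.01. Whether the list differed from the RP genes there was not tested. Over both experiments together 5 were lower (median -0.45), among them Bop1 (-0.47, SE 0.07, adjusted p = 0.0118) and Ebna1bp2 (-0.47, SE 0.07, adjusted p = 0.0128), which both act in assembly of the large subunit. Of 15 genes of RNA polymerase I and its factors, which transcribe rRNA, 8 were lower and 1 higher in experiment 1 (median -0.26) and 0 of 15 were called in experiment 2, where 2 had an unadjusted p under 0.05. Rrn3, which brings this polymerase to the rDNA promoter, fell in experiment 1 (-0.63, SE 0.06, adjusted p = 8.23e-05), and Polr1e was not called (-0.30, SE 0.12, adjusted p = 0.0698).

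Of 24 regulators around MYC and mTORC1, 7 were lower and 8 higher in experiment 1 (median 0.05) and 3 were lower and 3 higher in experiment 2 (median 0.04). Of all genes 28.1% were lower and 27.0% higher in experiment 1, and 8.29% and 7.52% in experiment 2, so the counts of this list in experiment 1 lay near the background. Larp1, the TOP mRNA binding protein, was lower in both experiments (-0.58, SE 0.07, adjusted p = 0.000328 and -0.66, SE 0.15, adjusted p = 0.0396). Pdcd4, an inhibitor of Eif4a1 that is degraded after phosphorylation by S6 kinase, was higher in both (1.75, SE 0.10, adjusted p = 6.37e-06 and 0.78, SE 0.16, adjusted p = 0.0337). Myc, named after its values were seen, was at 29.9 and 25.6 CPM in WT and 6.79 and 8.22 CPM in KO of experiment 1. Myc in experiment 2 was at 21 and 21.6 CPM in WT and 17.9 and 20.9 CPM in KO. It fell in experiment 1 (-1.90, SE 0.13, adjusted p = 1.43e-05) and was not called in experiment 2 (-0.13, SE 0.13, adjusted p = 0.52).

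**Figure D5:**
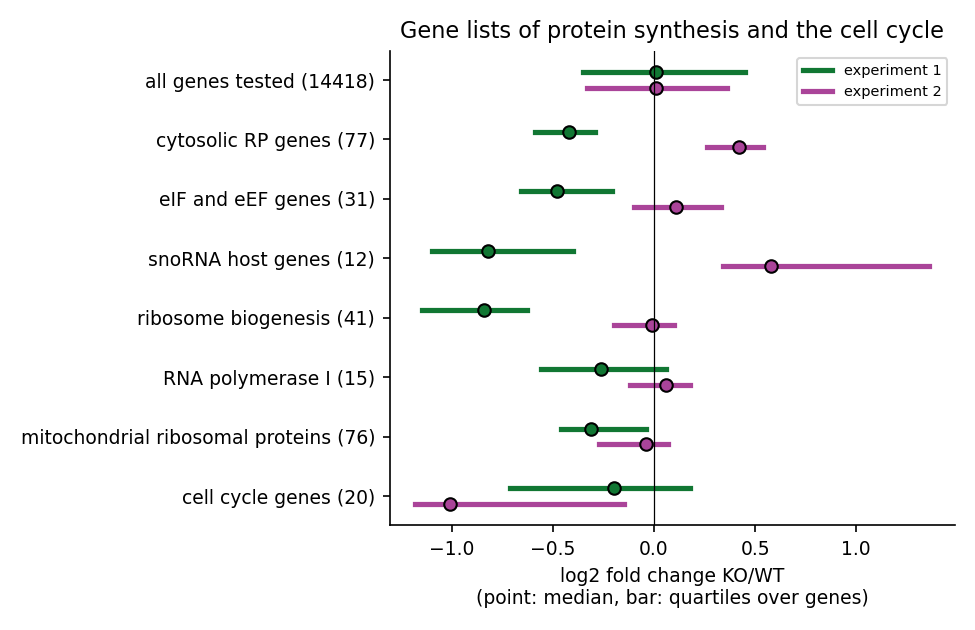
Median (points) and quartiles (bars) over genes of the log2 fold change of KO over WT (x axis) in experiments 1 and 2 for all genes tested, the RP genes and 6 lists, with the number of genes tested in brackets. The RP genes and snoRNA host genes lie below 0 in experiment 1 and above 0 in experiment 2, while ribosome biogenesis genes have medians of -0.84 and -0.01.

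Ribosomal proteins of mitochondria, which are encoded in the nucleus and build a separate ribosome, gave mostly lower calls in experiment 1 and few calls in experiment 2. Of 76 tested, 42 were lower and 4 higher in experiment 1 (median -0.31), and 4 were lower and 1 higher in experiment 2 (median -0.04). Of all genes 28.1% were lower and 27.0% higher in experiment 1, and 8.29% and 7.52% in experiment 2. Mrpl52 was lower in both (-1.03, SE 0.10, adjusted p = 8.78e-05 and -1.11, SE 0.12, adjusted p = 0.0108). Mrpl13 had log2 fold changes of -0.49 in experiment 1 and -0.38 in experiment 2, of which the first passed. Higher calls in experiment 2 thus numbered 19 of 77 among cytosolic and 1 of 76 among mitochondrial RP genes, beside 7.52% of all genes, and this contrast was not tested.

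Cell cycle genes gave calls in both directions in experiment 1 and lower calls alone in experiment 2. Of 20 tested, 8 were lower and 5 higher in experiment 1 (median -0.20), and 12 were lower and 0 higher in experiment 2 (median -1.01). Of all genes 28.1% were lower and 27.0% higher in experiment 1, and 8.29% and 7.52% in experiment 2. Mcm5, a subunit of the replicative helicase, was lower over both experiments together (-0.67, SE 0.14, adjusted p = 0.0339), and Rrm2, a subunit of ribonucleotide reductase, fell in experiment 1 (-1.13, SE 0.11, adjusted p = 0.000385). The 20 genes summed to between 2280 and 2940 CPM in experiment 1, to 4240 and 4380 in WT3 and WT4 and to 2780 and 2090 in KO7 and KO8, so the WT libraries of experiment 2 combined low RP mRNA with high cell cycle mRNA.

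Of the 10 macrophage markers, 3 were lower and 6 higher in experiment 1 and 2 lower and 2 higher in experiment 2, against 28.1% and 27.0% of all genes in the first and 8.29% and 7.52% in the second. Mertk was higher over both experiments together (1.27, SE 0.22, adjusted p = 0.0219), and Cd14 fell in experiment 2 (-1.48, SE 0.29, adjusted p = 0.0337). The fibroblast markers, which summed to 178 and 234 CPM in KO5 and KO6, were high in the KO libraries in which RP mRNA was low, with Col1a1 at 0.295 and 0.498 CPM in WT and 14.3 and 22.6 in KO of experiment 1, and 0.438 and 0.632 in WT and 0.805 and 0.0959 in KO of experiment 2 and Pdgfrb at 15.5 and 18.3 CPM in KO5 and KO6. They were not high in WT3 and WT4, where RP mRNA was low as well, and 0 of the 7 tested were called in experiment 2, where 1 had an unadjusted p under 0.05. Itgax was high in all 4 libraries with low RP mRNA and low in the other 4. The part of these cells or states in the RP result was not tested.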

How the data were processed

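RNA-seq counts per gene were used as deposited for 8 BMDM libraries, 2 for each genotype in each of 2 experiments. Per the labels, polyadenylated RNA was prepared with a stranded kit, and the submitters' processing notes list STAR 2.7.0f, featureCounts (Subread 1.6.4), DESeq2 1.22.1 and the build GRCm38, while the annotation and the strand and multi-mapping settings are not given in the sources used here. The authors' normalized tables were not used.

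Genes were filtered with filterByExpr over all libraries, scaled by TMM and tested with edgeR 4.0.16 (quasi-likelihood, robust) in R 4.3.3, within each experiment, over both with an experiment term, and for the interaction, with Benjamini-Hochberg adjustment over all 14418 genes and a threshold of 0.05. The SE was taken from the fold change and the F statistic. CPM used the same scaling. Each fit was tested on simulated data. Named RP genes were those with the extreme fold changes, the smallest interaction p, paralogs, stalk, disease or other roles, chromosome 15 and the count limit, and of other lists the 2 genes with the smallest p over both experiments. Members and lists were chosen with earlier results of these data known. Alternatives used other scalings, filters, DESeq2 1.42.0, limma-voom (limma 3.58.1), offsets for length and GC content, other sets of libraries and a threshold of 0.01. Some genes are not reported here by name.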

Additional observations from a re-analysis of the deposited data

Results flagged for a closer look

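The KO/WT log2 fold change differed between the experiments for 66 of the 77 RP genes by the test of the interaction in edgeR, against 21.0% of all genes called in that direction. The differences, experiment 2 minus experiment 1, among the named large subunit genes were 1.50 for Rpl12, 1.40 for Rpl29, 1.26 for Rpl26, 1.26 for Rpl39, 1.24 for Rpl30, 1.03 for Rpl5, 1.02 for Rpl37, 0.99 for Rpl36al, 0.93 for Rpl35a, 0.89 for Rpl22, 0.85 for Rpl36a, 0.67 for Rpl38, 0.47 for Rpl13a and 0.42 for Rpl8. Among the stalk genes they were 1.40 for Rplp0, 1.24 for Rplp1 and 0.61 for Rplp2. For the small subunit they were 1.31 for Rps20, 1.28 for Rps24, 1.10 for Rps27a, 1.04 for Rps6, 1.01 for Rpsa, 0.80 for Rps27, 0.78 for Rps19, 0.77 for Rps3 and 0.60 for Rps2. Only named genes that passed the interaction are listed here, all with the higher KO/WT ratio in experiment 2, and the cause was not tested. The named genes that did not pass had differences of 0.29 for Rpl10, 0.19 for Rpl11, 0.17 for Rps15 and 0.27 for Rps27l. Rpl37a (-0.36) and Rps4l (-1.10) did not pass either and had the opposite sign. Groups of 2 libraries are too small for a test of single outlying libraries, although KO5 stood apart from KO6 for Rpl29 and KO8 from KO7 for Rpl37a.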

How the results depend on the processing

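The 66 members lower in experiment 1 ranged from 60 to 67 over the alternatives, and from 61 to 64 when single libraries were left out. The 66 members with an interaction ranged from 54 to 69, and from 58 to 68 without single libraries. The 19 members higher in experiment 2 became 29 with upper-quartile scaling, 31 with total counts only, 32 with every gene with at least 1 count, 42 with DESeq2, 33 with offsets for length and GC content, 56 in 1 fit of 4 groups and 0 at an adjusted p under 0.01. The share of all genes called higher, 7.52% in the fit reported, was 8.78%, 9.34%, 6.02%, 10.4%, 9.15%, 17.2% and 0.68% in the same order. They ranged from 0 to 0 when WT3, WT4, KO7 or KO8 was left out, where the lone library of an arm is assumed to vary like the others and between 122 and 554 of all genes were called higher. The single member higher in experiment 1 became 0 in the fit of 4 groups and at an adjusted p under 0.01, and ranged from 0 to 2 without single libraries. Interaction calls in the lower direction rose from 0 to 1 with every gene with at least 1 count and ranged from 0 to 1 without single libraries, 1 of them without KO7. Both experiments together gave 0 members in either direction throughout.

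Upper-quartile scaling and total counts moved the median of all genes in experiment 1 from 0.01 to 0.11, and that of the members to -0.32 and -0.33. In experiment 2 the members' median became 0.47 and 0.48 with these scalings and 0.51 with offsets, over both experiments 0.06, 0.06 and 0.06, and for the interaction 0.93 with offsets. Without single libraries the medians ranged from -0.44 to -0.43, from 0.36 to 0.48, from -0.12 to 0.1 and from 0.81 to 0.91. The offsets were fitted on 11951 genes. With them Rpl10 reversed to 0.18 (adjusted p = 0.0441) and Rps15 to -0.29 (adjusted p = 0.0057) in experiment 1, and the cause was not tested. Rpl10 was then the 1 member called higher in experiment 1, and Rpl37a lost its call. Of the values of the named members under the alternatives, 2002 kept their side of the threshold, 90 lost it, 50 gained it and 2 reversed. Against totals without the 50 most abundant other genes, the RP share became 3.16%, 3.07%, 2.12% and 2.2% in WT1 to WT4 and 2.44%, 2.43%, 2.97% and 3.23% in KO5 to KO8, the groups again not overlapping.

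No paired analysis was possible because WT and KO libraries share no replicate number. With 2 libraries in each group, the spread is poorly known. Experiment and its culture, preparation and sequencing cannot be told apart.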

Other observations

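Some regulators and macrophage genes, named after their values were seen, had the arrangement of the RP genes or its mirror image. Eif4ebp1, which encodes the translation repressor 4E-BP1, was at 76.4 and 82.8 CPM in WT and 41.7 and 42 in KO of experiment 1, and 44.3 and 57.2 in WT and 65.3 and 95.7 in KO of experiment 2. Sesn2, a stress-induced inhibitor of mTORC1, was at 62.3 and 72.2 CPM in WT and 24.1 and 27.4 in KO of experiment 1, and 28.7 and 26 in WT and 52.2 and 80.8 in KO of experiment 2. Both were lower in KO of experiment 1 (-0.94 for Eif4ebp1 and -1.40 for Sesn2 on the log2 scale). In experiment 2 Sesn2 was higher (1.28, SE 0.23, adjusted p = 0.027) and Eif4ebp1 did not pass (0.66, SE 0.23, adjusted p = 0.115).

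Adgre1, which encodes the macrophage surface protein F4/80, was at 8320 and 7100 CPM in WT and 1930 and 1670 in KO of experiment 1, and 2680 and 2720 in WT and 4870 and 5260 in KO of experiment 2. Csf1r, the receptor of colony-stimulating factor 1, ran the other way, at 1560 and 1230 CPM in WT and 2540 and 2440 in KO of experiment 1, and 2450 and 2220 in WT and 1170 and 751 in KO of experiment 2. Adgre1 fell and Csf1r rose in KO of experiment 1 (-2.11 and 0.82), and Adgre1 rose and Csf1r fell in KO of experiment 2 (0.91 and -1.28). Mycl, a MYC relative, had neither arrangement, at 19 and 19.6 CPM in WT3 and WT4 and at or below 0.351 CPM in the other 6 libraries.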
